A study of Homo sapiens with 6 samples.

Results

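The genes for acetylcholine receptors were examined in SH-SY5Y cells, a human neuroblastoma line used as a model of neuronal cells, after knockdown of PSF, the nuclear RNA-binding protein that the SFPQ gene encodes. They were chosen by gene symbol, by a rule that used no measured value, from a list of 10: the nicotinic subunits CHRNA3, CHRNA5, CHRNA7, CHRNA9, CHRNB2 and CHRNB4 and the muscarinic receptors CHRM1, CHRM2, CHRM3 and CHRM4. The list itself was drawn up with earlier results of these data known. Of the 10, 9 had a row in the table of 21301 genes, and CHRNA9 is not analysed here. All 9 passed the filter on low counts that left 19694 genes for the test. Cells were harvested 72 h after transfection with siControl or with siPSF, a small interfering RNA against PSF. Poly(A)-selected RNA was sequenced as 3 libraries per group, described in a figure legend of the paper as biological triplicates. The siPSF was given at 10 nM, both groups came from the same line and received an siRNA, and an untransfected group was not analysed here. The knockdown used 1 siRNA sequence in 1 cell line.

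Nicotinic acetylcholine receptors are ion channels built from several subunits around a pore, and in autonomic neurons the subunits encoded by CHRNA3 and CHRNB4, often with that of CHRNA5, carry fast transmission in ganglia. Muscarinic receptors are single proteins that act through G proteins: the M1, M3 and M5 receptors through Gq, phospholipase C and calcium release, and the M2 and M4 receptors through Gi/o, which lowers cyclic AMP and opens potassium channels. SH-SY5Y cells derive from the sympathetic lineage and have long been used to study receptors of both families.

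After PSF knockdown 2 muscarinic genes, CHRM3 and CHRM2, were lower by edgeR, which called no nicotinic gene in either direction. CHRM3 showed the largest difference of the 9, with 33.6% of its siControl level left. When each library was left out in turn, CHRM3 was called in 6 of 6 fits and CHRM2 in 1 of 6. By edgeR, with quasi-likelihood p-values adjusted after Benjamini and Hochberg across every gene tested, 2 of the 9 were called lower at an adjusted p under 0.05, where 8.27% of all genes tested were. None of the 9 was called higher by edgeR, where 6.65% of all genes were. DESeq2 called 4 of the 9 lower and none higher, against 10.7% and 8.24% of the genes it gave an adjusted p. Its 4 calls were CHRM3, CHRM2, CHRM1 and the nicotinic CHRNA5. At an unadjusted p under 0.05, 4 were lower and 1, CHRNA7, was higher, where 5861 of the 19694 genes tested passed in either direction. The log2 fold change was negative for 8 of the 9, beside 9541 of the 19694 genes tested. Its median was -0.20 over the 9, -0.54 over the 4 muscarinic genes and -0.11 over the 5 nicotinic genes, beside 0.0097 over all genes tested.

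The genes differ in size and layout. Positions and gene lengths are those of RefSeq on GRCh38, and exons, introns and overlaps are those of GENCODE 44. CHRM3 occupies chr1:239386568-239915450 on the plus strand, 528.883 kb, and CHRM2 chr7:136868652-137020213 on the plus strand, 151.562 kb. CHRM1 (chr11:62908679-62921878) and CHRM4 (chr11:46383789-46391776), both on the minus strand, are 13.2 and 7.988 kb long. In the reference transcript of each muscarinic gene the whole protein is coded in 1 exon. That transcript has 7 exons in CHRM3, 4 in CHRM2 and 2 each in CHRM1 and CHRM4, so most of CHRM3 and CHRM2 is intron before the coding exon. The largest intron spans 148963 bases in CHRM3 and 122768 in CHRM2.

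On chromosome 15, CHRNA5 (chr15:78565520-78595269, plus strand), CHRNA3 (chr15:78593052-78620996, minus strand) and CHRNB4 (chr15:78624111-78661641, minus strand) lie side by side. The 3' ends of CHRNA5 and CHRNA3 overlap by 2218 bases, of which 198 are exonic in both. CHRNA7 (chr15:32030483-32173018, plus strand, 142.536 kb) lies elsewhere on chromosome 15 and CHRNB2 (chr1:154567778-154580013, plus strand, 12.236 kb) on chromosome 1. CHRNA7 has 10 coding exons and the other nicotinic genes analysed have 6 each.

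The promoters of the 4 muscarinic genes are printed here because this family held both genes that edgeR called beside CHRM1 and CHRM4, which it did not call. Each is 300 bases from RefSeq (GRCh38.p14), 250 before to 50 after a transcription start, 5' to 3' on the gene's own strand. Both strands were searched for the GC box GGGCGG, the cyclic AMP response element TGACGTCA and the TATA box TATAAA, and capitals mark the matches, which for the GC box may overlap. The CHRM2 window is the first of 3 starts listed. CHRNA5 had no entry.
CHRM3 (chr1:239386318-239386617, plus strand): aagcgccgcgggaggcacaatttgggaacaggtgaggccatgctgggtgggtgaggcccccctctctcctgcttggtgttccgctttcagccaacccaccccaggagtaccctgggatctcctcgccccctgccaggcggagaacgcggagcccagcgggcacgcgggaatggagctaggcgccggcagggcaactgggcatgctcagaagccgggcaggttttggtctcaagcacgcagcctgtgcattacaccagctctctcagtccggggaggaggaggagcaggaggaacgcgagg
CHRM2 (chr7:136868402-136868701, plus strand): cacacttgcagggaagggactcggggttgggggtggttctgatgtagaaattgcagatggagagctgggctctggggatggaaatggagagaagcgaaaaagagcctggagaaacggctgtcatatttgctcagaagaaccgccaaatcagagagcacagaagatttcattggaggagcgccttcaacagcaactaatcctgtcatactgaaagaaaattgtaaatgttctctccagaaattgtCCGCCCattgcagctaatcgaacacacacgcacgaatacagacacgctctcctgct
CHRM1 (chr11:62921314-62921613, minus strand): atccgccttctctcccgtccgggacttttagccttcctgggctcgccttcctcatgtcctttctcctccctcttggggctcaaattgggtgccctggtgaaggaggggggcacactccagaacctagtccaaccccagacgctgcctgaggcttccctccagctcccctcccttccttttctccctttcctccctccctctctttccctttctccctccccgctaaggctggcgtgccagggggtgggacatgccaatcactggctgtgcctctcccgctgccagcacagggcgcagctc
CHRM4 (chr11:46391727-46392026, minus strand): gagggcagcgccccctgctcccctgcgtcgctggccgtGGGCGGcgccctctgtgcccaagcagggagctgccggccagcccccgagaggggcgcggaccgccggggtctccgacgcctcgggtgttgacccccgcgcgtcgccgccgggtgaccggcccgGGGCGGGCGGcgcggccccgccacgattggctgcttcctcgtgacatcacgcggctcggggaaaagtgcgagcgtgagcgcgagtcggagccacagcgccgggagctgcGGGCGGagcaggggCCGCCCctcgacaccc

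The CHRM3 window is 66.0% G and C with 18 CpG dinucleotides and holds no match to the 3 motifs. The CHRM2 window is the poorest in G and C, 48.7% with 10 CpG and 1 GC box, read on the minus strand. CHRM1 has 62.7% G and C, 9 CpG and no match, and CHRM4 has 78.3%, 44 CpG and 5 GC boxes. Across 35116 RefSeq promoter windows the median was 58.7% G and C with 14 CpG, and 45.0% held a GC box, 1.85% the cyclic AMP response element and 11.5% the TATA box. Among the nicotinic genes, the windows of CHRNA3, CHRNB4 and CHRNA7 held 4, 3 and 6 GC boxes and that of CHRNB2 none. No window of a receptor gene held the cyclic AMP response element or the TATA box. These matches describe letters in a short window and say nothing of what binds there.

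Some facts of the libraries bear on every value. Total counts ran from 119019293 to 132420931 in the siControl libraries and from 101540520 to 120627283 in the siPSF libraries. Levels are given as CPM, counts scaled to a common library size by TMM, or, where genes are compared with each other, as the deposited FPKM, fragments per length of transcript and per size of library. SFPQ itself stood at 372, 356 and 401 CPM in the siControl libraries and at 209, 193 and 165 CPM in the siPSF libraries. Its log2 fold change was -0.99 (SE 0.10, adjusted p = 9.51e-05, edgeR), with 50.2% left. All 10 listed markers of noradrenergic neuroblasts had a row, with a summed level of 5926 to 6652 CPM in siControl and 5397 to 6490 CPM in siPSF libraries. In that list TH and DBH were called lower and GATA3 higher. The level of TH was low, at 0.73, 0.84 and 0.65 CPM in siControl and 0.37, 0.42 and 0.17 CPM in siPSF libraries. Of the glial markers, SOX10, GFAP, MBP and AQP4 had no row. Of 6 markers of blood, endothelium and epithelium, 3 had a row, summing to 4.01 to 5.39 CPM in siControl and 6.09 to 7.39 CPM in siPSF libraries, with EPCAM called higher. Of 8 mesenchymal markers, 7 had a row, at 205 to 224 and 185 to 216 CPM in all, with COL3A1 called lower. The part of these markers in the results was not tested, and in bulk RNA fewer cells of a type and less RNA per cell cannot be told apart.

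CHRM3 encodes the M3 receptor, which couples to Gq and raises intracellular calcium in smooth muscle, glands and neurons. It stood at 13.1, 16.7 and 20.1 CPM in siControl replicates 1, 2 and 3 and at 4.65, 4.19 and 7.95 CPM in siPSF replicates 1, 2 and 3. The highest siPSF library, replicate 3, stayed below the lowest siControl library, replicate 1. The mean fell from 16.6 ± 3.48 CPM (SD, n = 3) to 5.60 ± 2.05 CPM (n = 3), a 2.98-fold lower level in the fit (log2 fold change -1.57, SE 0.22, 95% interval -2.06 to -1.09, edgeR adjusted p = 0.000833). Among the 19694 genes it ranked 152 from the largest fall. The fold change ran from -1.91 to -1.40 when each library was left out in turn, and CHRM3 stayed called in all 6 of these fits and in all 13 alternatives. The deposited counts behind it were 1598, 2223 and 2532 in siControl and 552, 442 and 784 in siPSF libraries.

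Over the 6 libraries, the protein-coding genes whose log2 CPM followed CHRM3 most closely were ZNF724, NHS and IL17RD, each with a Pearson correlation of 0.997. Of 12653 genes compared, at a mean of 1 CPM or more, 187 reached 0.95. The 6 points share the siControl and siPSF split, so these values are a description of likeness across that split and within it.

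CHRM2 encodes the M2 receptor, the Gi/o-coupled receptor that slows the heart and acts as an autoreceptor on cholinergic terminals. Its level was low, at 2.04, 2.06 and 2.16 CPM in siControl and 1.39, 1.27 and 1.47 CPM in siPSF libraries, from 134 to 275 counts each. The groups did not overlap, and libraries within a group lay close together. The mean went from 2.09 ± 0.0644 CPM to 1.38 ± 0.101 CPM (SD, n = 3 each), 66.0% of siControl in the fit (log2 fold change -0.60, SE 0.17, 95% interval -0.97 to -0.23, edgeR adjusted p = 0.0332). The call ended without any one siControl library and without siPSF replicate 1 or 2 (adjusted p from 0.0621 to 0.102, edgeR), and was kept without siPSF replicate 3 (adjusted p = 0.0266, edgeR).

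CHRM1 encodes the M1 receptor, the main Gq-coupled muscarinic receptor of cortical and ganglionic neurons. It stood at 7.18, 6.52 and 5.77 CPM in siControl and 5.28, 5.46 and 3.12 CPM in siPSF libraries. The groups did not overlap, and siPSF replicate 3 was well below the other siPSF libraries. Group means were 6.49 ± 0.707 and 4.62 ± 1.30 CPM (SD, n = 3 each), and the log2 difference of -0.49 (SE 0.19, 95% interval -0.91 to -0.07) did not pass the test (edgeR adjusted p = 0.109). Without siPSF replicate 3 it was -0.27, and DESeq2's Wald test on all 6 libraries called it (log2 fold change -0.50, adjusted p = 0.0424).

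CHRM4 encodes the M4 receptor, which couples to Gi/o and is known best from the striatum. Its levels were 5.83, 5.61 and 4.65 CPM in siControl and 5.44, 4.54 and 4.92 CPM in siPSF libraries, and the groups overlapped. The log2 fold change of -0.11 (SE 0.14, 95% interval -0.42 to 0.20, edgeR adjusted p = 0.643) did not pass the test, and it ran from -0.21 without siControl replicate 3 to -0.048 without siControl replicate 1. Of the 4 muscarinic genes, 3 thus had no overlap between groups, all lower in siPSF, where 17.8% of all genes tested were, and CHRM4 was the one that overlapped.

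**Figure D1:**
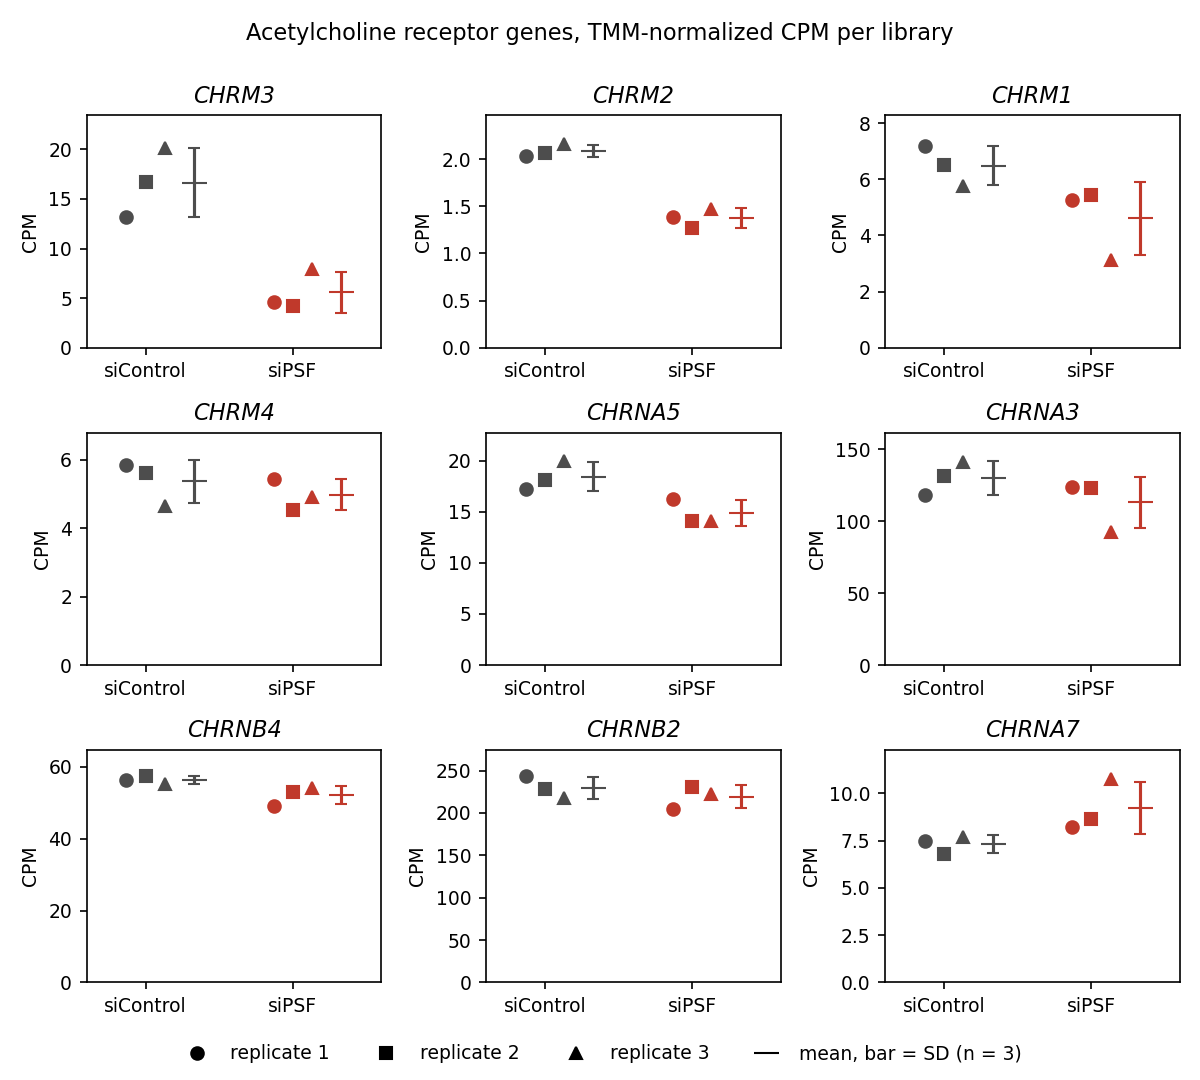
Level of each of the 9 receptor genes in each library, in TMM-normalized CPM on a linear axis from 0. Symbols mark replicates 1, 2 and 3 of siControl (grey) and siPSF (red), and the bar beside them is the mean with its SD (n = 3). The siPSF points of CHRM3 (4.19 to 7.95 CPM) and CHRM2 (1.27 to 1.47 CPM) lie below every siControl point, and those of CHRNA7 lie above (8.21 to 10.8 against 6.80 to 7.71 CPM).

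CHRNA3, CHRNA5 and CHRNB4 encode the subunits of the ganglionic receptor and sit together on chromosome 15. CHRNA3, the ligand-binding alpha subunit, stood at 118, 132 and 141 CPM in siControl and 123, 123 and 92.8 CPM in siPSF libraries. Replicates 1 and 2 of siPSF fell within the siControl range and replicate 3 lay below it. The log2 fold change was -0.20 (SE 0.11, 95% interval -0.45 to 0.05, edgeR adjusted p = 0.26). Without siPSF replicate 3 it was -0.080.

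CHRNA5 encodes an accessory subunit that joins receptors formed by alpha and beta subunits and does not bind acetylcholine by itself. It stood at 17.2, 18.1 and 20.0 CPM in siControl and 16.3, 14.1 and 14.1 CPM in siPSF libraries. Every siPSF library was lower than every siControl library, by a small margin for siPSF replicate 1. The means were 18.4 ± 1.42 and 14.9 ± 1.25 CPM (SD, n = 3 each), and the log2 fold change of -0.31 (SE 0.11, 95% interval -0.55 to -0.08) did not pass the test (edgeR adjusted p = 0.0714). DESeq2's Wald test (-0.32, adjusted p = 0.0331) and limma on log2(FPKM + 0.1) (-0.38, adjusted p = 0.0493), which called 11.9% of genes lower, put it past the threshold.

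CHRNB4 encodes the beta subunit of the same receptor. Its levels were 56.3, 57.3 and 55.1 CPM in siControl and 49.2, 52.9 and 53.9 CPM in siPSF libraries. The groups did not overlap, yet the gap was small beside the levels (log2 fold change -0.11, SE 0.08, 95% interval -0.29 to 0.07, edgeR adjusted p = 0.398). Of the 9 receptor genes, 5 had all siPSF libraries below all siControl libraries, beside the 17.8% of all genes, and CHRNA7 had all siPSF libraries above, where 16.7% did.

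The subunits were also compared as ratios within a library, which do not depend on library size. The mean log2 ratio of CHRNA5 to CHRNA3 in CPM was -2.82 ± 0.0449 in siControl and -2.92 ± 0.201 in siPSF, a difference of -0.10 (exact permutation p = 0.6, two-sided, n = 3 each). That of CHRNB4 to CHRNA3 was -1.21 ± 0.146 and -1.11 ± 0.288, a difference of 0.10 (exact permutation p = 0.7, n = 3 each). With 3 libraries against 3 the smallest p this test can give is 0.1, and the 4 ratios tested had adjusted p-values of 0.4 or more. The 6 listed protein-coding neighbours of this cluster on 15q24 and 15q25 held no gene called by edgeR, with a median log2 fold change of 0.044. At an unadjusted p under 0.05, 1 of them was lower and 2 were higher, where 5861 of the 19694 genes tested passed in either direction. DESeq2 called 1 higher, beside 8.24% of the genes it gave an adjusted p. The pair with the largest mean CPM was MORF4L1, a chromatin protein gene (-0.32, adjusted p = 0.0942, edgeR), and IREB2, which encodes an iron-responsive RNA-binding protein (-0.26, adjusted p = 0.243, edgeR). Without siPSF replicate 1 MORF4L1 was called (-0.43, adjusted p = 0.0470, edgeR). IREB2 was called without siPSF replicate 3 (-0.44, adjusted p = 0.0145, edgeR) and with a replicate block (-0.27, adjusted p = 0.0478, edgeR), and had -0.13 without siControl replicate 3.

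CHRNB2 encodes the beta subunit that pairs with alpha4 in most brain nicotinic receptors. It stood at 243, 228 and 218 CPM in siControl and 204, 231 and 222 CPM in siPSF libraries, and the groups overlapped. The log2 fold change was -0.07 (SE 0.08, 95% interval -0.25 to 0.12, edgeR adjusted p = 0.642). The log2 ratio of CHRNB2 to CHRNB4 was 2.03 ± 0.0708 in siControl and 2.07 ± 0.0458 in siPSF, a difference of 0.05 (exact permutation p = 0.4, n = 3 each). It was 0.16 in FPKM and ran from 0.020 to 0.087 in CPM without single libraries. Its alpha4 partner, CHRNA4, had 3 to 9 counts per library and was left out by the filter.

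CHRNA7 encodes the subunit of the homomeric, calcium-permeable alpha7 receptor, which is bound by alpha-bungarotoxin. It stood at 7.49, 6.80 and 7.71 CPM in siControl and 8.21, 8.62 and 10.8 CPM in siPSF libraries, the one receptor gene of the 9 with a positive difference. Every siPSF library was higher than every siControl library, and siPSF replicate 3 was the highest. The means were 7.33 ± 0.476 and 9.20 ± 1.38 CPM (SD, n = 3 each), and the log2 fold change of 0.33 (SE 0.13, 95% interval 0.04 to 0.61) did not pass the test (edgeR adjusted p = 0.12). Without siPSF replicate 3 it was 0.20.

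CHRNA7 counts carry a further uncertainty. CHRFAM7A, a partial duplicate of CHRNA7 fused to other sequence, shares 42.4% of the 50-base stretches of the CHRNA7 reference transcript, so reads of 50 bases from there could be counted to either gene. CHRFAM7A stood at 5.40, 4.26 and 4.78 CPM in siControl and 4.73, 5.28 and 5.65 CPM in siPSF libraries, and its log2 fold change was 0.12 (adjusted p = 0.625, edgeR). Of the other receptor genes, CHRNA5 shared 0.979% of such stretches with other genes and the rest none. CHRM4 overlaps MDK on the opposite strand by 49 exonic bases, and CHRM3 overlaps CHRM3-AS2 by 269. Other noncoding genes on the opposite strand overlap the exons of CHRNA5 by 832 bases, CHRNB2 by 321, CHRM1 by 313 and CHRNB4 by 165. Since the sources do not say whether counting used strand, reads from these stretches and from the shared end of CHRNA5 and CHRNA3 cannot be told apart.

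**Figure D2:**
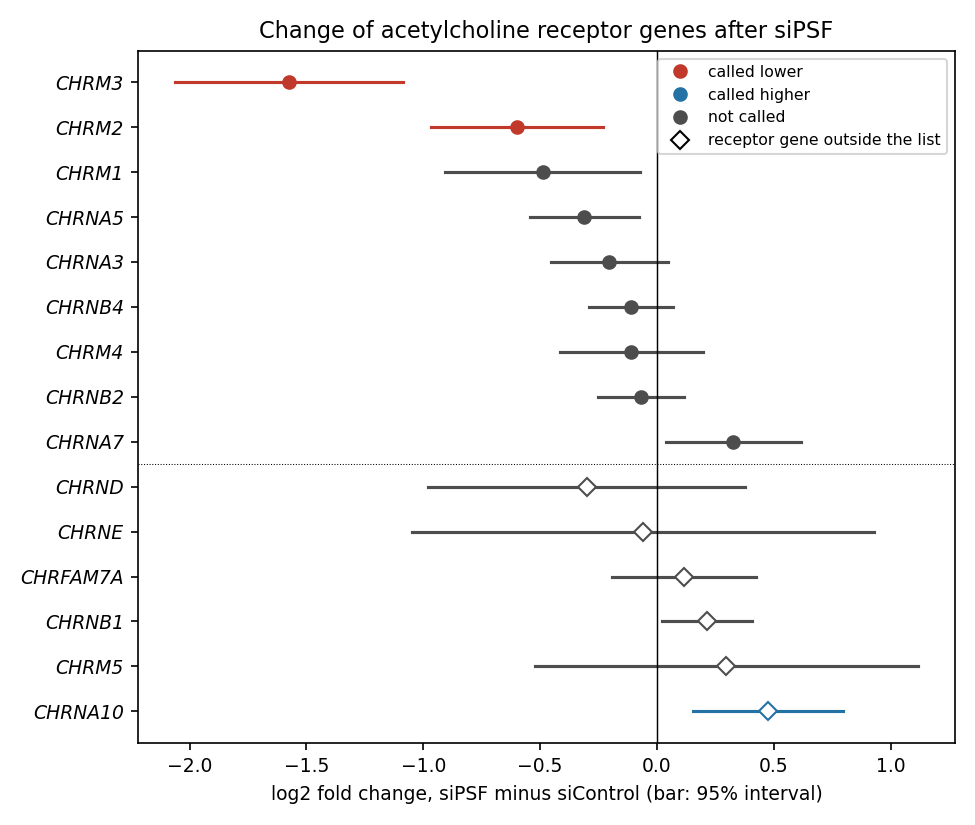
Log2 fold change of receptor genes, siPSF minus siControl, with 95% intervals from the edgeR fit. Circles above the dotted line are the 9 receptor genes of the list, from CHRM3 at -1.57 to CHRNA7 at 0.33, and open diamonds are 6 further receptor genes, of which CHRNA10 (0.48) was called higher. The intervals of CHRM1, CHRNA5 and CHRNA7 exclude 0, yet these genes did not pass after adjustment.

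Set side by side per length, as FPKM, the nicotinic genes other than CHRNA7 stood above the muscarinic genes. In siControl libraries CHRNA3 came first with 40.6 ± 4.31 FPKM (SD, n = 3), followed by CHRNB2 with 27.6 ± 4.46, CHRNB4 with 15.8 ± 0.464 and CHRNA5 with 4.76 ± 0.470 FPKM. CHRM1 followed with 2.31 ± 0.218, CHRM4 with 1.71 ± 0.147, CHRM3 with 1.71 ± 0.394, CHRNA7 with 1.16 ± 0.0926 and CHRM2 with 0.324 ± 0.0202 FPKM. CHRM4 and CHRM3 were the only neighbours in this order whose libraries overlapped.

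In siPSF libraries CHRM3 moved from the seventh place to the eighth, at 0.603 ± 0.239 FPKM, below CHRNA7 at 1.37 ± 0.237 FPKM. The libraries of 3 neighbouring pairs overlapped there: CHRNA3 (33.3 ± 5.47 FPKM) with CHRNB2 (27.3 ± 2.03), CHRM1 (1.55 ± 0.441) with CHRM4 (1.49 ± 0.161), and CHRM4 with CHRNA7. CHRM2 remained last with 0.201 ± 0.0150 FPKM. The FPKM of CHRNB2 should be read with care, since the FPKM given per count varied 1.47-fold between libraries for this gene, against a median of 1.01-fold over 13115 genes with 200 counts or more in every library, and its lowest value was in siControl replicate 1. For CHRM3 it varied 1.19-fold.

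Summed over the genes of each family, nicotinic FPKM was 89.9 ± 7.07 in siControl and 79.8 ± 3.91 in siPSF libraries, and muscarinic FPKM was 6.05 ± 0.0604 and 3.85 ± 0.312 (SD, n = 3 each). The muscarinic sums of 6.02, 6.01 and 6.12 in siControl were all above those of 4.20, 3.74 and 3.61 in siPSF. The log2 ratio of muscarinic to nicotinic FPKM was -3.89 ± 0.111 in siControl and -4.38 ± 0.109 in siPSF, a difference of -0.49 (exact permutation p = 0.1, adjusted p = 0.4 over the 4 ratios, n = 3 each), and 0.1 is the smallest p possible here. With CPM in place of FPKM the difference was -0.77. Within the muscarinic sum CHRM3 made up 28.2% ± 6.23 in siControl and 15.9% ± 7.14 in siPSF, and CHRM4 28.3% ± 2.69 and 38.8% ± 2.81. Shares within the nicotinic sum moved less, from 45.1% ± 2.61 to 41.5% ± 5.23 for CHRNA3 and from 30.6% ± 3.26 to 34.3% ± 3.35 for CHRNB2.

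**Figure D3:**
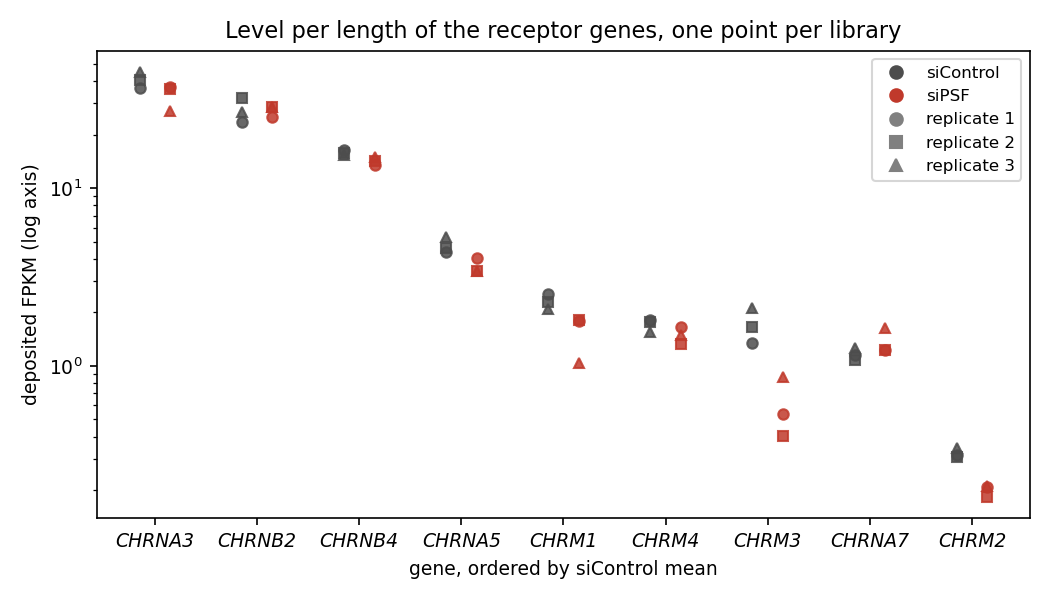
Deposited FPKM of the 9 receptor genes on a log axis, ordered by their siControl mean, with 1 point per library (siControl grey, siPSF red, symbols by replicate). Levels span from 45.0 FPKM for CHRNA3 to 0.184 FPKM for CHRM2, and the siPSF points of CHRM3 drop below those of CHRNA7.

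CHRM3 and CHRM2 were also the longest of the 9 genes, so each receptor gene was set beside protein-coding genes of its own length. The median log2 fold change of all tested protein-coding genes was 0.085 under 10 kb, 0.059 from 10 to 30 kb, 0.0041 from 30 to 100 kb, -0.15 from 100 to 400 kb and -0.58 at 400 kb or more. CHRM3, in the longest class, lay 0.99 below its class median in log2 and ranked 24 of 370 from the largest fall, in a class where 53.8% were called lower. CHRM2 lay in the 100 to 400 kb class, where 20.7% of 2400 genes were called lower, at rank 291 and 0.45 below the median. CHRNA7, in the same class and not called by edgeR, lay 0.47 above that median.

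Shorter receptor genes also lay below the medians of their classes. In the 10 to 30 kb class of 4110 genes, CHRM1, which edgeR did not call, ranked 160 and lay 0.55 below the median. CHRNA5 ranked 329 and lay 0.37 below that median, and CHRNA3 ranked 537 and lay 0.26 below. CHRNB2 lay 0.13 below the same median and CHRNB4 0.12 below that of the 30 to 100 kb class. CHRM4, the shortest, lay 0.20 below the median of genes under 10 kb. Ranks and class medians are descriptions, and the part of length in the differences of single genes was not tested.

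**Figure D4:**
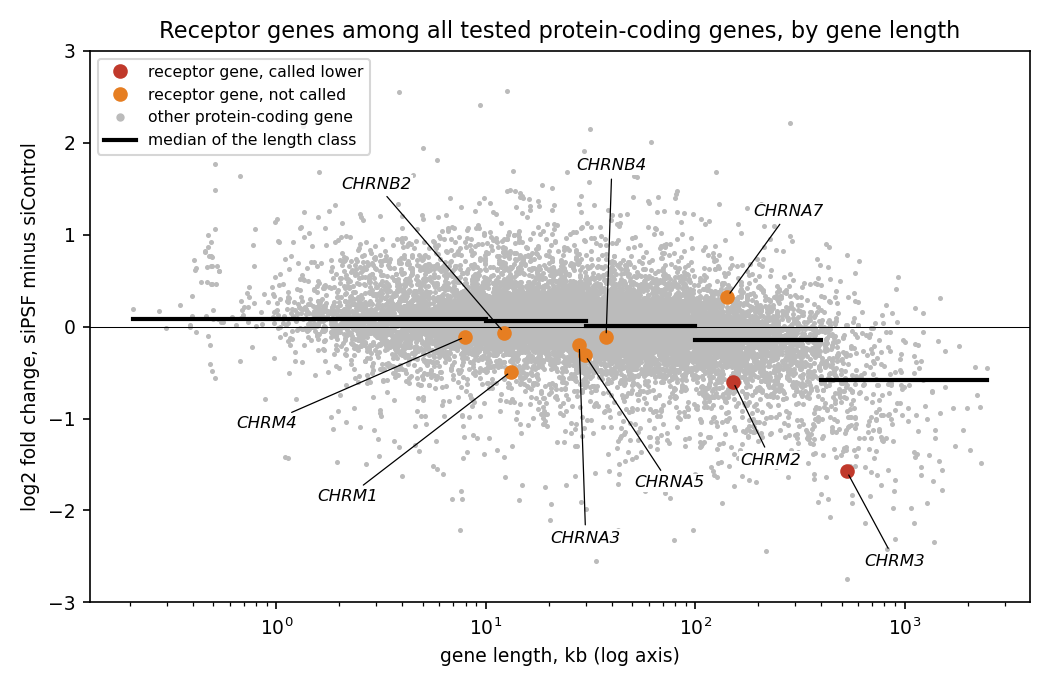
Log2 fold change against gene length in kb (log axis) for 14416 tested protein-coding genes (grey), with the receptor genes in red where called lower and orange otherwise, and the median of each length class as a black line. CHRM3 lies below the median of its class (-0.58), CHRM2 below and CHRNA7 above that of theirs (-0.15), and 2 genes lie beyond the vertical axis.

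Of 12 further receptor genes, 7 had a row and 6 were tested, and CHRNA1, CHRNA2, CHRNA6, CHRNB3 and CHRNG had no row. CHRNA10, whose product forms receptors with that of CHRNA9 in hair cells, rose from 3.86, 3.85 and 3.23 CPM to 4.62, 5.77 and 4.84 CPM (log2 fold change 0.48, SE 0.15, edgeR adjusted p = 0.0479), with no overlap. The call held in 1 of 6 fits that left out a library, the one without siPSF replicate 3, and was lost in the others (adjusted p from 0.0685 to 0.167). CHRNB1, which encodes the muscle beta subunit, went from 27.3 to 31.7 CPM on average (0.21, adjusted p = 0.129, edgeR). CHRND, CHRNE and CHRM5 stayed under 1 CPM in every library.

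Genes for making, storing and clearing acetylcholine showed no common direction, with a median log2 fold change of 0.021 over 6 tested. COLQ, whose collagen tail anchors acetylcholinesterase in the synaptic matrix, fell from 4.49, 4.53 and 4.11 CPM to 1.42, 1.36 and 0.933 CPM (-1.81, SE 0.18, edgeR adjusted p = 0.000102). PRIMA1, whose product anchors the same enzyme in neuronal membranes, rose from 22.0, 22.7 and 24.3 CPM to 30.6, 32.3 and 32.9 CPM (0.47, SE 0.09, edgeR adjusted p = 0.00506). Neither pair of groups overlapped, and both calls held in all 6 fits without a library. ACHE, the enzyme itself, was not called (0.0014, adjusted p = 0.997, edgeR), nor were CHAT, SLC18A3 and BCHE, and SLC5A7 had no row.

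Among 12 tested genes for nicotinic receptor assembly and the Ly6 proteins that bind these receptors, 2 were called lower and 1 higher, beside 8.27% and 6.65% of all genes, with a median of -0.21. LYPD1, an Ly6 modulator of nicotinic receptors, had a log2 fold change of -0.87 (adjusted p = 0.0233, edgeR). LY6E, another Ly6 protein, had 0.40 (adjusted p = 0.0391, edgeR). The call of LYPD1 was lost without siControl replicate 1 or 2 (adjusted p = 0.0749 and 0.0631, edgeR). That of LY6E held only without siControl replicate 1 (0.056 to 0.0915 otherwise). RIC3, a chaperone for alpha7 receptors, averaged 52.4 ± 2.93 CPM in siControl and 48.4 ± 6.70 CPM in siPSF libraries (SD, n = 3 each, log2 fold change -0.11, adjusted p = 0.519, edgeR).

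In the pathway downstream of Gq, used by the M1 and M3 receptors, 6 of 13 tested genes were called lower and none higher by edgeR, with a median log2 fold change of -0.29, beside 8.27% and 6.65% of all genes. DESeq2 called 7 lower and none higher, beside 10.7% and 8.24% of the genes it gave an adjusted p. At an unadjusted p under 0.05, 7 were lower and 2 higher, where 5861 of the 19694 genes tested passed in either direction. The largest falls were those of ITPR2, an inositol trisphosphate receptor of the endoplasmic reticulum (-1.39, adjusted p = 0.000337, edgeR), and PRKCA, the protein kinase C alpha gene (-1.35, adjusted p = 2.39e-05, edgeR). PRKCA stood at 514, 468 and 518 CPM in siControl and 212, 206 and 172 CPM in siPSF libraries. PLCB1, the phospholipase C activated by Gq, had -1.14 (adjusted p = 0.00059, edgeR), and PLCB4, its relative, -0.40 (adjusted p = 0.0282, edgeR).

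KCNQ3 and KCNQ5 encode channels of the M current, the potassium current that M1 receptors shut. Their log2 fold changes were -1.11 and -0.99 (adjusted p = 0.000389 and 0.00059, edgeR). The G protein genes GNAQ and GNA11 were not called (-0.29 and -0.09). Summed over the 13 genes the level ran from 1114 to 1193 CPM in siControl and from 784 to 796 CPM in siPSF libraries. Without single libraries 5 to 7 genes were called, and all of these 6 but PLCB4 kept their call in each such fit. The 6 genes are long, KCNQ3 with 360 kb and ITPR2, PRKCA, PLCB1, PLCB4 and KCNQ5 with 412 kb or more, in length classes where 20.7% and 53.8% of genes were called lower, and the part of length was not tested. PLCB4 lost its call without siControl replicate 2 or 3 or siPSF replicate 1 or 2 (adjusted p from 0.0506 to 0.0922).

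Downstream of Gi/o, used by the M2 and M4 receptors, 4 of 13 tested genes were called lower and 1 higher, beside 8.27% and 6.65% of all genes. The median log2 fold change was -0.28. The 4 called lower are 101 to 166 kb long, in the 100 to 400 kb class where 20.7% of genes were called lower. KCNJ9, the gene called higher, has 9.03 kb, in the class under 10 kb where 9.91% were called higher. The part of length was not tested. ADCY3 and ADCY9, adenylyl cyclases, had log2 fold changes of -0.48 and -0.54 (adjusted p = 0.00324 and 0.0183, edgeR). GNAO1, the Go alpha subunit, had -0.39 (adjusted p = 0.0409, edgeR). KCNJ3, a subunit of the inward rectifier channels opened by Gi/o, had -0.56 (adjusted p = 0.0100, edgeR), and KCNJ9, a further subunit of that channel family, had 0.39 (adjusted p = 0.0289, edgeR). ADCY3 and KCNJ3 held in all 6 fits without a library, ADCY9 in 3, and GNAO1 and KCNJ9 in 1 each. ADCY9 was lost without siControl replicate 2 or siPSF replicate 1 or 2 (adjusted p from 0.0539 to 0.0789). GNAO1 held only without siPSF replicate 2 (0.0688 to 0.121 otherwise, with a log2 fold change of -0.26 without siPSF replicate 3) and KCNJ9 only without siPSF replicate 3 (0.058 to 0.118 otherwise).

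Of 10 genes for receptor desensitization and RGS proteins, which end G protein signals, 2 were called lower and 1 higher, beside 8.27% and 6.65% of all genes, with a median of 0.011. ARRB1, beta-arrestin 1, had -0.39 (adjusted p = 0.0147, edgeR) and RGS16 -0.38 (adjusted p = 0.0204, edgeR). RGS4 had 0.72 (adjusted p = 0.0261, edgeR), with 58.9, 68.9 and 84.0 CPM in siControl and 98.8, 88.8 and 160 CPM in siPSF libraries. Its groups did not overlap, and siPSF replicate 3 stood far above the rest. Without siPSF replicate 3 its log2 fold change was 0.41, still called, and the call was lost without any one siControl library (adjusted p from 0.0516 to 0.108). DESeq2 did not call RGS4 (adjusted p = 0.101). ARRB1 was lost without siControl replicate 2 or siPSF replicate 1 (adjusted p = 0.0594 and 0.0791, edgeR) and RGS16 without siControl replicate 2 (adjusted p = 0.081, edgeR).

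**Figure D5:**
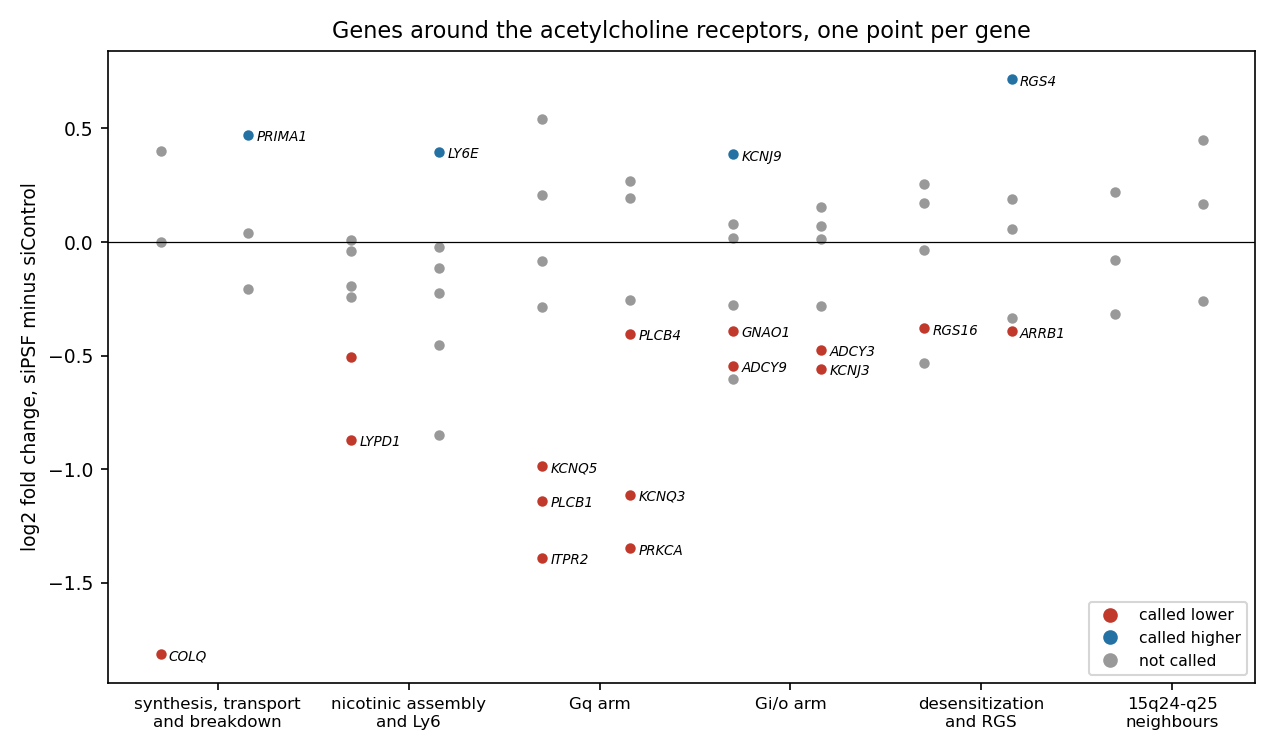
Log2 fold change, siPSF minus siControl, of each tested gene in 6 lists of genes around the receptors, with 1 point per gene in red where called lower, blue where called higher and grey otherwise, and with names beside most called genes. The Gq list holds 6 red points and no blue one, from ITPR2 at -1.39 to PLCB4 at -0.40, whereas the list of neighbours of the chromosome 15 cluster holds no coloured point.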

How the data were processed

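RNA from 3 siControl and 3 siPSF libraries of SH-SY5Y cells was analysed, with groups and replicates taken from the sample titles. The authors deposited 1 table of raw read counts and FPKM values. Per the labels, a stranded TruSeq mRNA kit was used and the submitters' processing notes name Trimmomatic, HISAT2 2.1.0, StringTie 2.1.3b and GRCh38, whereas the paper's methods name a TruSeq RNA kit, TopHat mapping to hg38 and counting on RefSeq. The methods call the length-normalized unit RPKM. Which steps made the deposited counts is therefore uncertain. The smallest count is 1, so genes without reads in a library are not analysed here.

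Deposited counts were filtered with filterByExpr, normalized by TMM and tested over 19694 genes by quasi-likelihood in edgeR 4.0.16 (R 4.3.3), with no block, and p-values were adjusted by Benjamini-Hochberg. SE is the size of the fold change over the square root of F. The common coefficient of biological variation was 12.6%. Replicate pairs differed by more than sampling noise (chi-square per degree of freedom 21.7 to 63.8). In simulated data of 19556 genes, 97 were changed by 1 and 99 by 2 on the log2 scale, with each gene's spread set by the trend over genes. The fit recovered 77.3% and 98.0% of these, and 2.82% of its calls were false. Far fewer genes changed there than the 14.9% called here, so these rates need not hold for the real libraries. Alternatives were leaving out each library, size factors from DESeq2, no filter, a replicate block, DESeq2's Wald test (1.42.0, no adjusted p for 2065 genes) and limma (3.58.1) on log2(FPKM + 0.5) or log2(FPKM + 0.1) at a mean FPKM of 0.5 or more. Limma without that floor was added after the data were seen, since CHRM2 lies under it. Promoters came from RefSeq (GRCh38.p14), where 8 of the 9 genes had an entry.

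The receptor genes and all lists were chosen with earlier results of these data known. Named are all receptor genes, SFPQ, every called gene of a related list or, with none called, the pair with the largest mean CPM, and the 3 genes most like CHRM3. RIC3, ACHE, GNAQ, GNA11, CHRNB1, CHRFAM7A and the genes named without values were added after their values were seen. Some genes that the rule or the marker lists select are not reported here.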

Additional observations from a re-analysis of the deposited data

How the results depend on the processing

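CHRM3 was called in all 13 alternatives, with log2 fold changes from -1.91 to -1.01, and CHRNA3, CHRNA7, CHRNB2, CHRNB4 and CHRM4 in none. CHRM2 was called in 5 of the 11 alternatives that gave it a value, with -0.65 to -0.55 when 1 library was left out and -0.60 (adjusted p = 0.052, edgeR) with a replicate block. The number of receptor genes called lower was 1 to 2 without single libraries, 1 with the block, 4 by DESeq2's Wald test and 1 by limma on log2(FPKM + 0.5). CHRNA5 passed by DESeq2 (-0.32) and by limma on log2(FPKM + 0.1) (-0.38), and CHRM1 by DESeq2 (-0.50). Over all genes, 1500 to 3140 were called without single libraries beside 2938, with 1500 without siControl replicate 2 and 1754 without siControl replicate 3.

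The difference in log2 ratio changed sign for CHRNA5 to CHRNA3 without siPSF replicate 2 (0.00027, lowest -0.20 without another library) and for CHRNB4 to CHRNA3 without siPSF replicate 3 (-0.064, highest 0.21 without another library). Without single libraries CHRM5 ran from -0.025 to 0.54, and CHRNE from -0.56 to 0.24, with 0.039 and 0.22 without siControl replicates 1 and 3 and 0.020 and 0.24 without siPSF replicates 1 and 3. The causes were not tested.

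Called genes in the related lists without single libraries were 0 to 1 for other receptors, 0 to 2 for nicotinic assembly, 5 to 7 for Gq, 2 to 5 for Gi/o, 0 to 4 for desensitization and 0 to 1 for the 15q neighbours. The other receptors had 0 with the block, 0 without a filter and 0 under each limma version. Nicotinic assembly had 1 by limma on log2(FPKM + 0.5), 1 on log2(FPKM + 0.1) and 0 without the floor, where Gi/o had 3. The 15q neighbours had 1 with the block and 1 by DESeq2. Same-numbered libraries of the groups correlated by -0.022, 0.056 and 0.056 in their deviations, within the range of -0.12 to 0.071 over all pairs of libraries between groups. These values cannot settle whether libraries were handled in pairs by number. The block changed no other call among the 9 receptor genes. Limma without the floor was chosen after seeing the data.

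Genes near 2 CPM, such as CHRM2, rest on 134 to 275 counts per library, and 3 libraries per group limit what small differences can pass.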
